A study of Homo sapiens with 4 samples.

Results

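Small nucleolar RNA (snoRNA) host genes were examined in H9, an established line of human embryonic stem cells. The members were all genes named SNHG with a number, together with GAS5, DANCR, ZFAS1, TUG1, OIP5-AS1, EPB41L4A-AS1 and CYTOR, and they came to 35 of the 60671 genes in the table. RNA with a poly(A) tail was sequenced in 4 libraries, 2 per group, of cells grown in mTeSR medium. The first group was labelled control. The second carried an edited CFIm25 gene and a lentiviral 3Flag-CFIm25, and is called KO+OE here. Per the study's methods the edited line, before the lentiviral copy was added, is 1 single-cell clone in which little CFIm25 is left and the protein is truncated. By the paper's western blot, re-expression brought CFIm25 back to about its endogenous level. Sample titles call the edit a knockout and the series title calls it a knockdown. CFIm25 is the small subunit of cleavage factor I, which binds UGUA in nascent RNA near poly(A) sites, and NUDT21 encodes it. Edited cells that lack the lentiviral copy were not analysed here, so the comparison shows only how far the re-expressing clone stood from control cells. Nothing in the labels says that the replicates were separate cultures, and p-values then measure the spread between these libraries, which may be technical.

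snoRNAs guide 2′-O-methylation (box C/D) or pseudouridylation (box H/ACA) of ribosomal and spliceosomal RNA. In human cells most are cut from the introns of longer genes. Some hosts encode ribosomal proteins or translation factors, and others make a spliced, polyadenylated RNA with no long open reading frame, which is often degraded in the cytoplasm by nonsense-mediated decay (NMD) once ribosomes engage it. Many hosts of both kinds belong to the TOP class, whose RNAs begin with a pyrimidine run that ties them to the growth-controlled RNAs of the translation machinery.

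In RefSeq on GRCh38.p14, 31 of the 35 members held at least 1 snoRNA within their bounds. The 4 without one were CYTOR, OIP5-AS1, TUG1 and SNHG27, so the name host gene does not describe them in that annotation. The members held 151 snoRNAs in all. SNHG14, the imprinted transcript of the Prader-Willi region that runs into UBE3A on the opposite strand, held 84 of them, GAS5 held 11 and SNHG1 held 9. TUG1 was the single member annotated as protein coding in GENCODE 44, and the other members were long noncoding RNA (lncRNA) genes.

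The start sites are shown because the pyrimidine run is the feature that links noncoding and protein-coding hosts. Each window covers 10 bases before the RefSeq start and 20 bases from it on, 5′ to 3′ on the gene's strand. Capitals mark the longest run of C and T that touches the first 5 transcribed bases.
SNHG4, chr5:139274091-139274120, plus strand: ctcccggctgCCCTTTCCCCTCCggcctct
SNHG32, chr6:31834906-31834935, plus strand: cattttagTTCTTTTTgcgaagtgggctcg
SNHG1, chr11:62855866-62855895, minus strand: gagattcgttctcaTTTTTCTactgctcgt
SNHG5, chr6:85678714-85678743, minus strand: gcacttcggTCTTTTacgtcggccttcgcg
SNHG3, chr1:28505933-28505962, plus strand: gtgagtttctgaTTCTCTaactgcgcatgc
DANCR, chr4:52712384-52712413, plus strand: tgcgcgccccgCCCTTgcccagagtcttcc
CYTOR, chr2:87455417-87455446, plus strand: atgagtcaTCTCgttccaatgagaatgaag
SNHG11, chr20:38446644-38446673, plus strand: gctctaggctgcagCCgcgcccccagccgt
SNHG29, chr17:16438977-16439006, plus strand: ccttttgtgaggaTTgggatattccgactc
GAS5, chr1:173869026-173869055, minus strand: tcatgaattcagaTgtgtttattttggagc
The run was 13 bases long in SNHG4, 8 in SNHG32, 7 in SNHG1, 6 in SNHG5 and SNHG3, and 5 in DANCR. CYTOR had 4 bases, SNHG11 and SNHG29 had 2, and GAS5 had 1 at the start that RefSeq gives. A run of at least 5 bases was present in 17 of the 31 members with a start-site entry (54.8%) and in 18 of the 31 protein-coding hosts with one (58.1%). It was present in 7492 of all 35116 entries (21.3%), which were not limited to genes expressed in these cells. The minimum of 5 was set after the run lengths had been seen. SNHG6, SNHG9, SNHG15 and SNHG25 had no entry.

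The ends of the transcripts are shown for the letters TGTA, the DNA form of the element that CFIm25 binds. TGTA lay within the last 100 bases of the GENCODE 44 canonical transcript of 15 of 35 members (42.9%). The same was true of 49.8% of all tested genes and of 35.4% of the other tested lncRNA genes. The 35 members include SNHG27, SNHG28 and SNHG31, which were not tested. For some members, among them SNHG8, EPB41L4A-AS1 and SNHG10, that transcript is longer than the whole gene in RefSeq, so the annotations disagree. Capitals mark the TGTA nearest to the 3′ end for a pair of members with the highest levels and a pair with higher values in KO+OE cells.
SNHG29: taacagaaataaagtacacaataagTGTAa
GAS5: taaaacttttatgTGTAtgattagaactta
SNHG3: atccgtgtcctgcTGTAactacatagatct
SNHG4: aaccagattgaagTGTAtaattataatatg
CYTOR, SNHG11 and SNHG25 had no TGTA in that window. In the members shown, the element began 5 bases from the transcript end in SNHG29, 20 in GAS5, 45 in SNHG3 and 59 in SNHG4. A poly(A) signal spelled AATAAA or ATTAAA was present within the last 50 bases of 54.3% of members and 75.3% of all tested genes. The share among the other tested lncRNA genes was not computed for this signal, so the difference cannot be read as particular to the members. A match of these letters is a description of the annotated transcript and not of binding.

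The deposited values were read as TPM, since the header gives no unit. TPM is a share of transcripts per library that is scaled by transcript length. Levels of different genes are set side by side on that scale, and the lengths used are not known. The members together held 2041.8 and 1987.1 TPM in the control libraries and 2016.3 and 1904.8 TPM in the KO+OE libraries. This was 0.193% to 0.207% of each library and 15.5% to 15.9% of the TPM of all lncRNA rows. SNHG29 and GAS5 alone made up 47.9% to 49.0% of the members' sum. Of the 35 members, 5 averaged at least 100 TPM, 5 lay between 50 and 100, 10 between 10 and 50, 12 between 1 and 10, and 3 under 1 TPM.

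**Figure D1:**
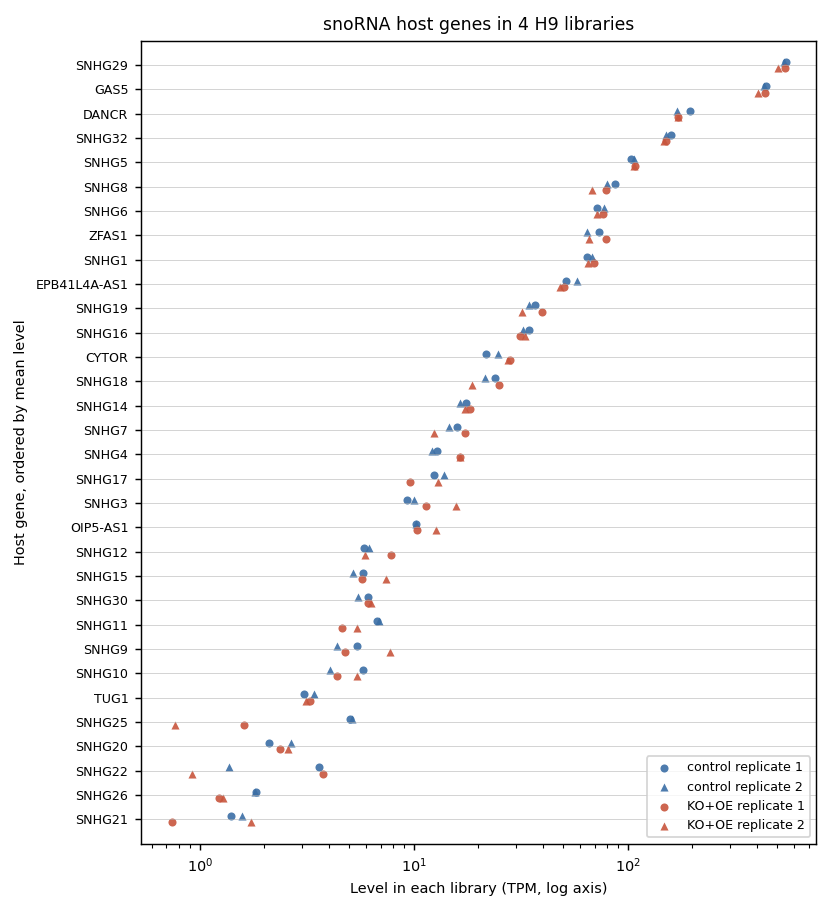
Level of each of the 32 members with a mean of at least 1 TPM, in TPM on a log axis, with 1 point per library (blue, control; red, KO+OE; circles, replicate 1; triangles, replicate 2). SNHG29 and GAS5 sit at the top, and the KO+OE points of SNHG25 lie far to the left of its control points.

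The highest member was SNHG29, which carries SNORD49A, SNORD49B and SNORD65, with 546.61 and 537.92 TPM in control and 540.53 and 504.5 TPM in KO+OE cells. GAS5, named for its accumulation in growth-arrested cells, had 440.47 and 435.12 TPM in control and 435.66 and 407.45 TPM in KO+OE cells. In all 4 libraries SNHG29 was above GAS5, and KO+OE replicate 2 was the lowest library for both.
DANCR, an RNA named for holding progenitor cells in an undifferentiated state, had 195.29 and 169.49 TPM in control and 172.26 and 171.25 TPM in KO+OE cells. SNHG32, the host of SNORD48 and SNORD52, had 159.85 and 150.27 TPM in control and 150.4 and 147.47 TPM in KO+OE cells. The lowest DANCR library was above the highest SNHG32 library. SNHG5, the host of the SNORD50 pair, had 103.36 and 107.05 TPM in control and 108.51 and 106.55 TPM in KO+OE cells, and its libraries differed little.

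Between 50 and 100 TPM the order was less clear. SNHG8, which carries SNORA24, had 86.74 and 79.98 TPM in control and 79.16 and 68.25 TPM in KO+OE cells. SNHG6, which carries SNORD87, had 72.07 and 77.43 TPM in control and 76.62 and 71.72 TPM in KO+OE cells. ZFAS1, transcribed divergently from ZNFX1 and host of the SNORD12 family, had 73.05 and 64.36 TPM in control and 78.98 and 66.18 TPM in KO+OE cells. The ranges of these 3 genes overlapped one another. SNHG8 was above ZFAS1 in all 4 libraries, narrowly in both KO+OE libraries, while the place of SNHG6 changed between libraries. SNHG1, the host of SNORD22 and SNORD25 to SNORD31, had 64.45 and 68.24 TPM in control and 69.42 and 65.31 TPM in KO+OE cells. EPB41L4A-AS1, the host of SNORA13, had 51.52 and 58.04 TPM in control and 50.52 and 48.1 TPM in KO+OE cells. All of its libraries were below those of SNHG1.

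Between 10 and 50 TPM, SNHG19, the host of SNORD60, had 36.72 and 34.66 TPM in control and 39.55 and 32.07 TPM in KO+OE cells. SNHG16, which carries the SNORD1 family, had 34.57 and 32.5 TPM in control and 31.36 and 33.13 TPM in KO+OE cells. These ranges overlapped. SNHG18, the host of SNORD123, had 23.97 and 21.58 TPM in control and 24.98 and 18.68 TPM in KO+OE cells. SNHG14 had 17.62 and 16.42 TPM in control and 18.3 and 17.38 TPM in KO+OE cells, with little difference among libraries. SNHG7, the host of SNORA17A and SNORA17B, had 15.86 and 14.6 TPM in control and 17.34 and 12.39 TPM in KO+OE cells, and its KO+OE values lay on both sides of the control values. DIPK1B, with a mean of 38.52 TPM, shares bases with SNHG7 on the other strand. SNRPN, with a mean of 1368.6 TPM, shares 141 bases with SNHG14 on the same strand. The use of strand in counting is not given, and the part of these neighbours in the levels of SNHG7 and SNHG14 was not tested. SNHG17, which carries members of the SNORA71 family, had 12.39 and 13.79 TPM in control and 9.63 and 12.96 TPM in KO+OE cells. OIP5-AS1, the human counterpart of the cyrano RNA, had 10.27 TPM in both control libraries and 10.34 and 12.67 TPM in KO+OE cells. Its groups did not overlap, by a margin of less than 0.1 TPM. OIP5, which shares bases with OIP5-AS1 on the other strand, had 6.03 and 6.17 TPM in control cells. In KO+OE cells OIP5 had 7.94 and 7.35 TPM, also higher in both libraries. NUSAP1 (mean 7.61 TPM) and a further protein-coding gene share the strand of OIP5-AS1, with overlapping groups. The part of these neighbours in the value of OIP5-AS1 was not tested.

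The remaining members were low. SNHG12, SNHG15, SNHG30, SNHG10, TUG1 and SNHG20 had means between 2.44 and 6.46 TPM, and all but SNHG30 had overlapping groups. SNHG22 had 3.61 and 1.37 TPM in control and 3.79 and 0.92 TPM in KO+OE cells, so its replicates differed more than its groups. SNHG21 had 1.4 and 1.57 TPM in control and 0.74 and 1.73 TPM in KO+OE cells. Some of these low members share bases with genes at higher mean levels. Among these genes are GLRX5 (130.47 TPM) opposite SNHG10 and MYO5B (5.16 TPM) opposite SNHG22. SEC14L1 (12.9 TPM) shares the strand of SNHG20. The part of such neighbours in the levels of these members was not tested. SNHG28, SNHG27 and SNHG31 did not reach 0.2 TPM in any library and were not tested.

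The snoRNAs themselves were almost out of view in these poly(A)-selected libraries. A row was matched by symbol and had to name HGNC, the gene naming body, in its description. SNORA16A and SNORA17B had 2 such rows each, and only the first was read. Of the 151 snoRNAs inside the members, 133 had a row matched in this way (none of the 11 within GAS5 did), and 127 of these were listed at 0 in every library. The others were at 0 in at least 2 libraries. SNORA61, within SNHG12, had 13.91 TPM in control replicate 1 and SCARNA17, within SNHG22, had 12.83 TPM in control replicate 2, each with 0 elsewhere. SNORA71B, within SNHG17, was listed only in KO+OE libraries, at 0.87 and 1.61 TPM. Within SNHG3, SNORA73A had 1.82 TPM and SNORA73B had 2.65 TPM, both in KO+OE replicate 1 alone. SCARNA13, within SNHG10, had 0.66 TPM in control replicate 2 and 2.18 TPM in KO+OE replicate 2. Apart from SNORA71B, none of these snoRNAs had a value in both libraries of a group, and such values have no replicate. Levels of the snoRNAs were therefore not compared between the groups.

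The groups were then compared with limma on log2(TPM + 1) over 12319 genes whose mean reached 1 TPM, of which 32 were members. Fold changes are given as KO+OE minus control on that scale, and they understate the change of low genes. No member passed an adjusted p of 0.05, against 1 of all genes tested (0.00812%). At an unadjusted p under 0.05 there were 5 members of 32 (15.6%), against 5.33% of all genes tested. SNHG4, SNHG3 and CYTOR were the 3 higher in KO+OE cells, a direction with 2.26% of all genes, and SNHG25 and SNHG11 were the 2 lower, a direction with 3.06%. The groups did not overlap for 10 members (31.2%), against 34.1% of all genes tested, with 5 higher (14.5% of all genes) and 5 lower (19.6%). The median log2 fold change was -0.01 over the members and -0.01 over all genes tested, and 14 members had a fold change above 0 and 18 below.

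**Figure D2:**
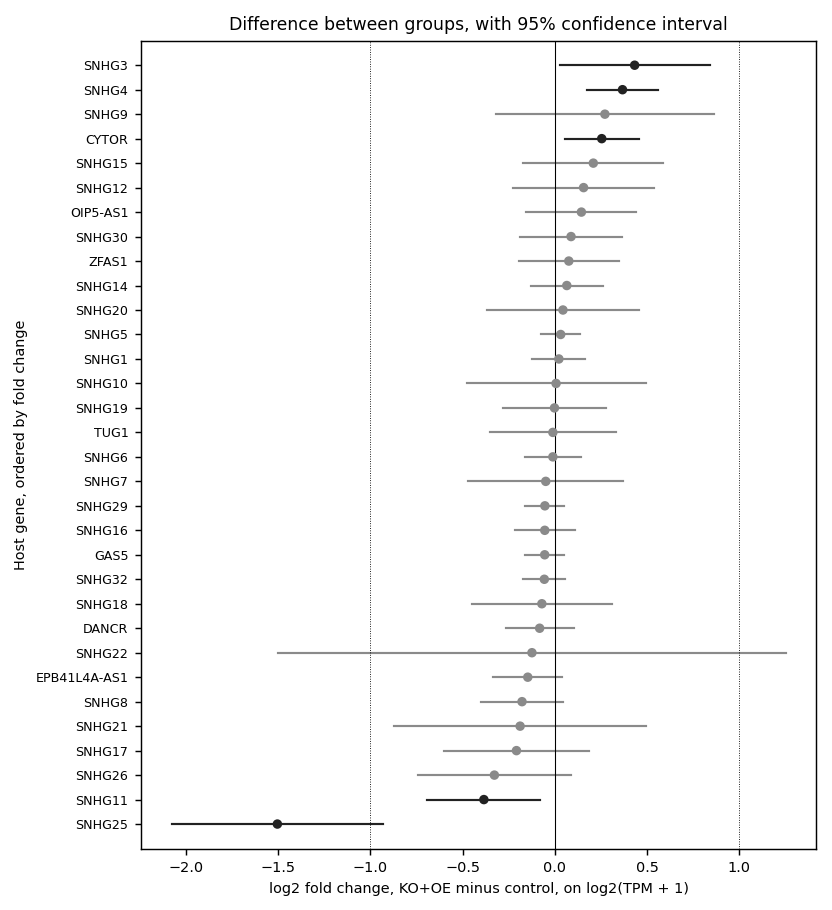
Log2 fold change (KO+OE minus control, on log2(TPM + 1)) of the 32 tested members with the 95% confidence interval of limma. Black marks an unadjusted p under 0.05 and grey the others. Dotted lines mark a 2-fold difference on that scale, which is a larger ratio of TPM for low members. The interval of SNHG25 reaches from -2.08 to -0.93, and most other intervals cross 0.

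SNHG25 differed most. It carries SNORD104 and spans chr17:64145970-64146309, and its canonical transcript of 311 bases was the shortest of the 35. SNHG25 had 5.05 and 5.14 TPM in control and 1.61 and 0.77 TPM in KO+OE cells, so both KO+OE libraries were well below both control libraries. The mean in TPM was 4.28 times higher in control cells. The log2 fold change was -1.50 (95% confidence interval -2.08 to -0.93, SE 0.22, limma unadjusted p = 0.00108, Benjamini-Hochberg adjusted p = 0.556). The size of this value depended on the pseudocount, being -2.09 with 0.1 TPM and -0.71 with 5 TPM. Leaving out any 1 library kept the limma unadjusted p between 0.00119 and 0.0117.

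SNHG4, which carries SNORA74A and SNORA74D, had 12.91 and 12.24 TPM in control and 16.48 and 16.51 TPM in KO+OE cells. Both groups were tight and they did not overlap. The log2 fold change was 0.37 (95% confidence interval 0.18 to 0.56, SE 0.07, limma unadjusted p = 0.00428, adjusted p = 0.908), and leaving out any 1 library gave a limma unadjusted p between 0.0162 and 0.0304. In GENCODE 44 the gene lies within MATR3 on the same strand and SIL1 on the other, and whether counting used strand is not given in the sources used here. MATR3 had 6.99 and 9.22 TPM in control and 7.78 and 6.11 TPM in KO+OE cells, and SIL1 had 9.76 and 12.44 TPM in control and 9.57 and 9.84 TPM in KO+OE cells. Neither neighbour had both KO+OE libraries above its control libraries. Their part in the value of SNHG4 was not tested.

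SNHG3, the host of SNORA73A and SNORA73B, had 9.34 and 10.08 TPM in control and 11.46 and 15.74 TPM in KO+OE cells. Both KO+OE libraries were higher, and replicate 2 stood well above replicate 1. The log2 fold change was 0.43 (95% confidence interval 0.03 to 0.84, SE 0.16, limma unadjusted p = 0.0413, adjusted p = 0.928). With KO+OE replicate 2 left out it was 0.22 (limma unadjusted p = 0.149), and with KO+OE replicate 1 left out it was 0.65 (limma unadjusted p = 0.00887). Leaving out control replicate 1 gave 0.38 (limma unadjusted p = 0.169) and leaving out control replicate 2 gave 0.48 (limma unadjusted p = 0.105). RCC1, which shares the locus on the same strand, had 51.41 and 52.72 TPM in control and 50.88 and 47.03 TPM in KO+OE cells, lower in both KO+OE libraries. How reads in sequence common to both genes were counted is not given in the sources used here.

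CYTOR, a cytoplasmic RNA named for its link to the cytoskeleton, had 21.88 and 24.67 TPM in control and 28.23 and 27.57 TPM in KO+OE cells. The KO+OE libraries were both higher. The log2 fold change was 0.25 (95% confidence interval 0.05 to 0.45, SE 0.08, limma unadjusted p = 0.0227, adjusted p = 0.928). The limma unadjusted p became 0.0911 without control replicate 1, 0.109 without the first KO+OE library and 0.0816 without the second, and it was 0.0146 without control replicate 2, where the log2 fold change was 0.34. NCAL1, an lncRNA gene on the same strand that overlaps CYTOR, had 6.57 and 6.69 TPM in control and 7.56 and 7.09 TPM in KO+OE cells, also higher in both KO+OE libraries, and its part in the value of CYTOR was not tested.

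SNHG11, the host of SNORA60 and SNORA71E, had 6.76 and 6.91 TPM in control and 4.6 and 5.43 TPM in KO+OE cells. The 2 KO+OE libraries were lower than both controls. The log2 fold change was -0.38 (95% confidence interval -0.69 to -0.08, SE 0.12, limma unadjusted p = 0.0232, adjusted p = 0.928). The limma unadjusted p became 0.0843 without control replicate 1, 0.0998 without control replicate 2 and 0.108 without KO+OE replicate 1, and it was 0.0323 without KO+OE replicate 2.

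SNHG26, the host of SNORD93, and SNHG9, the host of SNORA78, completed the 3 largest differences in each direction. SNHG26 had 1.84 and 1.82 TPM in control and 1.23 and 1.28 TPM in KO+OE cells, with a log2 fold change of -0.33 (limma unadjusted p = 0.0969). SNHG9 had 5.44 and 4.4 TPM in control and 4.78 and 7.76 TPM in KO+OE cells, with overlapping groups and a log2 fold change of 0.27 (limma unadjusted p = 0.292).

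**Figure D3:**
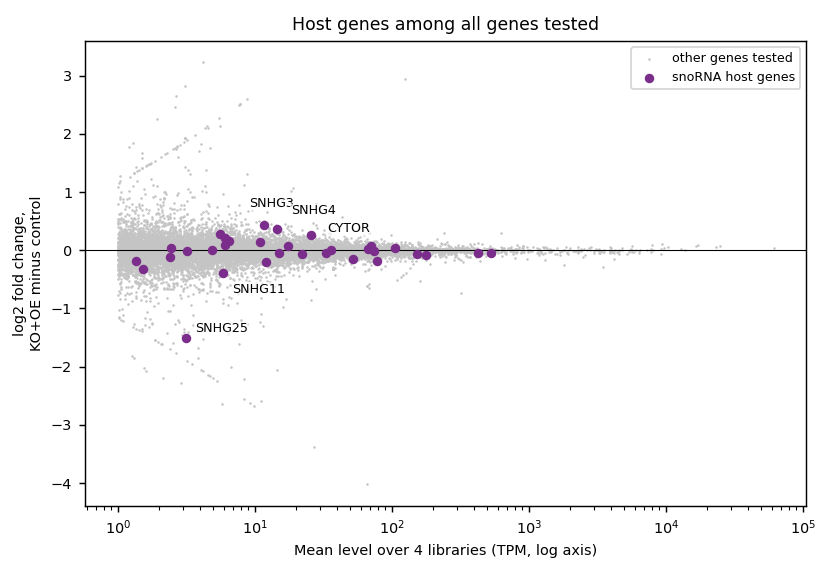
Mean level over the 4 libraries (TPM, log axis) against log2 fold change (KO+OE minus control) for the 12319 genes tested, with members in purple and those with an unadjusted p under 0.05 named. Members at high levels lie close to 0, and SNHG25 is the one member below -1.

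For the abundant members the intervals were narrow. SNHG29 had a log2 fold change of -0.05 (95% confidence interval -0.16 to 0.05) and GAS5 one of -0.06 (-0.16 to 0.05). DANCR had -0.08 (-0.27 to 0.10), SNHG32 -0.06 (-0.17 to 0.06) and SNHG5 0.03 (-0.07 to 0.14). In these 5 genes a difference as large as 1.5-fold lay outside the interval. SNHG8 had -0.18 (-0.40 to 0.04, limma unadjusted p = 0.0925) and EPB41L4A-AS1 had -0.15 (-0.33 to 0.04, limma unadjusted p = 0.101), each with both KO+OE libraries below both controls. Over the 32 members tested, the interval stayed within a 2-fold difference on the log2(TPM + 1) scale for 30 and within 1.5-fold for 23. Over all 12319 genes tested it stayed within these bounds for 11409 and 8750, a like share. For members at a few TPM the same interval covers a larger ratio of TPM. A 2-fold difference in TPM is therefore not excluded for all of the 30. SNHG25 and SNHG22, whose interval ran from -1.50 to 1.25, were the 2 exceptions at 2-fold on the log2(TPM + 1) scale.

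Replicates of the members differed by amounts that bear on these values. Among the 15 members between 5 and 50 TPM, the median absolute difference between replicates was 0.10 in control and 0.29 in KO+OE cells on the log2(TPM + 1) scale. All 5417 genes of that level had 0.10 in both groups, and 248 other lncRNA genes had 0.16 and 0.16. Among the 10 members of at least 50 TPM the difference was 0.10 in control and 0.09 in KO+OE cells, against 0.04 and 0.05 over all genes of that level and 0.08 in both groups over 31 other lncRNA genes. Among the 7 members between 1 and 5 TPM the difference was 0.12 in control and 0.25 in KO+OE cells. All 4923 genes of that level had 0.19 and 0.18, and 633 other lncRNA genes had 0.27 and 0.25. KO+OE replicate 2 was the lowest library for 11 of the 32 members and the highest for 7. KO+OE replicate 1 was the lowest for 5, and each control library for 8. The same count was not made over all genes tested, so it is not read as a trait of the members. The KO+OE replicates differed most in SNHG22 (1.32), SNHG21 (0.65), SNHG9 (0.60) and SNHG25 (0.56). SNHG7, SNHG3, SNHG18 and SNHG17 followed with 0.45, 0.43, 0.40 and 0.39. No test of the spread was made. Across the 32 members the mean TPM had a Spearman correlation of 0.106 with transcript length and -0.185 with GC content, against -0.192 and 0.275 over 12145 tested genes, given as a description of genes measured in the same libraries.

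Other genes of the pathway were read from 3 lists. The 42 protein-coding hosts, all tested, showed a median log2 fold change of -0.0045, and 2 were at an unadjusted p under 0.05 (4.76%, against 5.33% of all genes tested). RPS2, a ribosomal protein of the small subunit and the highest of the list, had 9514.8 and 9339.49 TPM in control and 8815.07 and 9126.65 TPM in KO+OE cells (-0.07, limma unadjusted p = 0.0364, adjusted p = 0.928). NCL, which encodes nucleolin and had the largest rise in value of the list, had 51.43 and 52.73 TPM in control and 56.52 and 57.81 TPM in KO+OE cells (0.13, limma unadjusted p = 0.0368, adjusted p = 0.928). The groups did not overlap in either gene. RPL13 and RPL13A, the next in level, lay between 7745.8 and 8027.08 TPM and between 6309.48 and 6446.06 TPM. The lowest fold change was that of WDR43, a ribosome biogenesis factor, at -0.15 (limma unadjusted p = 0.354).

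Of 19 core proteins and assembly factors of the snoRNA particles, 18 were tested, with ZNHIT6 below the level limit. Their median log2 fold change was 0.01, and by limma 0 were below the 0.05 threshold, with or without adjustment. FBL, the methyltransferase of box C/D particles, lay between 1139.13 and 1171.32 TPM, NHP2, a core protein of box H/ACA particles, between 497.68 and 524.17 TPM, and the ATPase RUVBL2 between 356.15 and 367.85 TPM. RPAP3, an assembly cofactor, had the highest fold change (0.34, limma unadjusted p = 0.131), with 1.01 and 1.0 TPM in control and 1.32 and 1.77 TPM in KO+OE cells. NOP58, a core box C/D protein, had the lowest (-0.09, limma unadjusted p = 0.566). NOP56 and DKC1 belong to this list and to the protein-coding hosts, since their genes carry snoRNAs too.

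Of 17 NMD and exon junction factors, 15 were tested, with UPF2 and UPF3B below the level limit. Their median log2 fold change was 0.02, and 2 were at an unadjusted p under 0.05 (13.3%, against 5.33% of all genes tested), with 0 at an adjusted p under 0.05. EIF4A3, the helicase that anchors the exon junction complex, had 90.63 and 94.42 TPM in control and 72.29 and 76.23 TPM in KO+OE cells. Its KO+OE libraries were below both controls, with a log2 fold change of -0.31 (95% confidence interval -0.44 to -0.19, SE 0.05, limma unadjusted p = 0.00141, adjusted p = 0.645). UPF3A, an NMD factor of the UPF3 pair, had 10.07 and 9.17 TPM in control and 13.55 and 11.05 TPM in KO+OE cells (0.32, limma unadjusted p = 0.0482, adjusted p = 0.931). RNPS1, the highest of the list, lay between 322.3 and 333.57 TPM, and UPF1, the central NMD helicase, between 53.99 and 58.5 TPM.

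**Figure D4:**
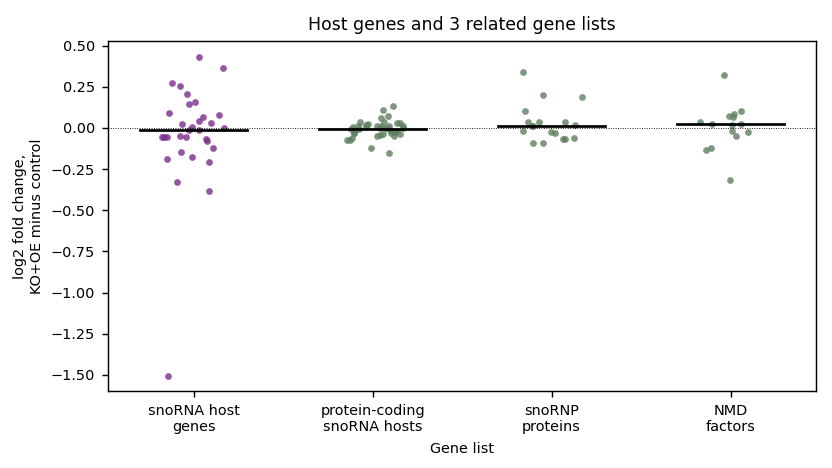
Log2 fold change (KO+OE minus control) of each tested gene of the 4 lists, with a line at the median of each list and a dotted line at 0. The members spread from -1.50 to 0.43, and the protein-coding hosts from -0.15 to 0.13.

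The edited gene gave no check of the labels at the level of RNA. NUDT21 had 160.67 and 152.2 TPM in control and 162.09 and 156.6 TPM in KO+OE cells (log2 fold change 0.03, 95% confidence interval -0.09 to 0.14, limma adjusted p = 0.98), and the table does not separate RNA of the edited gene from that of the lentiviral copy. All 7 pluripotency markers were expressed, with POU5F1 between 2163.82 and 2212.38 TPM, and by limma 0 of them were below the 0.05 threshold, with or without adjustment. Of the 14 markers of germ layers and fibroblasts, 10 were under 1 TPM in every library, among them SOX17 and LUM at 0, while NES, COL1A1, THY1 and GATA6 were expressed in all 4 libraries. Mitochondrial RNA made up 21.0% and 21.1% of TPM in control and 21.6% and 22.1% in KO+OE cells, and leaving them out of the scaling moved the median fold change of all genes by 0.01.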

How the data were processed

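Poly(A)-selected RNA of 4 H9 libraries, 2 control and 2 KO+OE, was grouped by sample title. The authors deposited 1 column per library. The header gives no unit, and the deposited values were read as TPM because each column holds decimals and sums to between 986853 and 987078. The submitters' processing notes list hg38, HISAT2, featureCounts, Subread and DESeq2, without role. The annotation, the versions and the use of strand are not given in the sources used here. Without counts the depth is unknown, and no counting interval was computed. There were 0 further per-sample columns. Since TPM is a share, a gene can move because others do.

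Values were put on log2(TPM + 1). Genes whose mean reached 1 TPM were tested two-sided by group with limma 3.58.1 under R 4.3.3 (lmFit, then eBayes with trend), and p-values were adjusted by Benjamini-Hochberg over all genes tested. The step was tested on simulated data. Summaries and plots used matplotlib 3.10.9, scipy 1.17.1, numpy 2.4.6 and pandas 2.3.3 under Python 3.11.15.

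Start-site windows, gene bounds and snoRNA positions came from RefSeq on GRCh38.p14, with 31 members having a start-site entry. Transcript ends, lengths and overlapping genes came from GENCODE 44 on GRCh37, matched by gene identifier. Values are given for each library for members with a mean of at least 10 TPM or an unadjusted p under 0.05, and for the 3 largest rises and falls. Of each list the 3 highest, the extreme and the p under 0.05 genes are named, some with only a range or a fold change. SNHG22, SNHG21, the snoRNAs with values, and the overlapping genes were picked with their values in view. The members and lists were chosen with earlier results of these data known. The sequence features, the minimum run of 5, the level classes and the choice of RefSeq for snoRNAs were set after values had been seen.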

Additional observations from a re-analysis of the deposited data

How the results depend on the processing

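Alternatives were pseudocounts of 0.1 and 5 TPM, no filter, a filter at 5 TPM, rescaling by median ratios or to nuclear genes, quantile normalization, limma with a prior that ignores the mean, a block for the replicate number, and each library left out in turn, where the group left with 1 library is assumed to vary like the other. Under all 13 alternatives 0 members passed an adjusted p of 0.05, and the smallest adjusted p of a member was 0.425. The number of members at an unadjusted p under 0.05, 5 in the report, was 4 to 6 with all libraries kept and 3 to 7 with 1 left out, the lowest being without control replicate 1. It was 6 with the replicate block, where SNHG8 was added, and the pairing by replicate number changed no other call of a member. Same-numbered libraries did not deviate together (correlation -0.05 of their deviations from the group means), so they were taken to share only a number. SNHG4 was among them under all 13 alternatives, and SNHG25 under all but the 5 TPM filter, which removed it. SNHG3 was not among them without the filter (limma unadjusted p = 0.0635) or with the mean-independent prior (limma unadjusted p = 0.0718), where SNHG26 was (limma unadjusted p = 0.00824). The number without overlap was 20 to 22 with 1 library left out, since 1 value against 2 overlaps less often by construction.

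Medians with 1 library left out ranged from -0.0526 to 0.011 for the members, -0.0281 to -0.0005 for the protein-coding hosts, -0.0083 to 0.0255 for the snoRNA particle proteins and -0.0269 to 0.0262 for the NMD factors. Of 310 single-gene values, 20 changed direction, and the cause was not tested. SNHG19 was 0.0102 with median-ratio rescaling, 0.0110 with quantile normalization and 0.0118 rescaled to nuclear genes, and SNHG6 was 0.0017, 0.0126 and 0.0033. With 1 library left out the log2 fold change ranged from -0.1843 to 0.0190 for DANCR, -0.0218 to 0.0650 for SNHG1, -0.2709 to 0.1298 for SNHG18, -0.1493 to 0.1449 for SNHG19, -0.0620 to 0.0401 for SNHG6, -0.2764 to 0.1774 for SNHG7, -0.0289 to 0.5709 for SNHG9 and -0.0504 to 0.2012 for ZFAS1. The rescalings moved the median of all genes by 0.01. The depth is unknown, so the counting error of the low members could not be set beside these values.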
